A study of Mus musculus with 4 samples.

Results

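The plasminogen activator system is the set of secreted and cell-surface proteins that turn the inactive plasma protein plasminogen into the protease plasmin, together here with tissue factor, which starts blood clotting, and its inhibitors. The members were fixed by gene symbol as Plau, Plaur, Plat, Serpine2, Serpinb2, F3, Tfpi and Tfpi2, and every probe set (the group of short probes that reads 1 transcript) that the platform annotation gives to 1 of these symbols was taken. Of the 8 genes, 7 had a probe set, with 10 probe sets in all out of 22690 on the array; Serpine2 had none listed in the annotation used here and is not analysed. The expression values come from mouse CH10T1/2 cells, fibroblasts of embryonic origin with the capacity to form cartilage, bone, fat and muscle, on 4 Affymetrix Mouse Genome 430A 2.0 arrays. All 4 cultures carried a stably introduced PTHR1, the receptor for parathyroid hormone and its related peptide PTHrP: in 2 of them the wild type form (WT line) and in 2 the R150C variant, a form known from enchondromas, which are benign cartilage tumours (R150C line). After a night without serum, 1 culture of each line was given PTHrP at 1e-07 M and 1 was given carrier, each for 1 h; for the WT control culture carrier is taken from the series text, since its own labels name it just as control. Each group is 1 array of 1 transfected line per receptor, so that the receptor and the line cannot be told apart, and the sources used here do not say whether a line is 1 clone or a pool.

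In cells, urokinase (Plau) and tissue-type activator (Plat) cut plasminogen to plasmin, and the urokinase receptor (Plaur) holds urokinase at the cell surface. Serpins such as Serpinb2 bind the activators and block them for good. Tissue factor (F3) binds factor VII on the cell surface and starts the clotting cascade, which Tfpi, a protein with Kunitz domains, restrains; Tfpi2, its relative, inhibits plasmin and other serine proteases. Fibroblasts use plasmin to clear fibrin and matrix during migration and wound repair.

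The values given are signals, fluorescence intensities on a linear scale as deposited, and differences on the scale log2(signal + 16), which understates the change of dim genes. Each array was centred on the median of 6197 kept genes, those whose brightest probe set lay at or above the median brightness over 12393 genes, a level that corresponds to a signal of 62.6. Plaur, Plat, F3 and Tfpi passed that filter, and each of their probe sets read above 62.6 in every array. Plau, Serpinb2 and Tfpi2 did not pass and have values but no test in the main analysis. With 1 array per group, a single contrast is a value with no test, and it is set beside the spread of such differences (SD, log2), estimated over the 500 genes nearest in level from how far each departs from additive line and PTHrP effects. Differences between the lines over both media were tested with limma's additive model, adjusted by Benjamini-Hochberg over all kept genes at 0.05, and are called only where they passed under each of 4 scalings of the arrays. The p-values measure only the spread between these 4 arrays, which may be technical.

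The urokinase receptor and tissue factor were higher in the R150C line in both media, while the tissue-type activator and Tfpi were not called. On the log2(signal + 16) scale Plaur was 4.44-fold higher over both media by limma (log2 difference 2.15, SE 0.15, n = 2 arrays per line), and F3 was 2.32-fold higher (1.21, SE 0.15). Of the 4 kept members 2 were called higher and 0 lower, against 5.08% and 2.89% of all kept genes. The same 2 differed at least 2-fold in control medium and under PTHrP, where 3% and 2.89% of kept genes did so in either direction. Plau (brighter probe set) and Serpinb2 differed by 0.49 and 0.56 between the lines over both media, but at signals below the filter. How many of all genes have lines that do not overlap was not counted. For Plau the difference in control medium (0.25, brighter probe set) lay within its spread of 0.46. Without the filter limma called neither Plau, Serpinb2 nor Tfpi2 between the lines (adjusted p 0.343, 0.292 and 0.72). On the log2(signal + 16) scale no measured member differed 2-fold after 1 h of PTHrP in either line. With a pseudocount of 1 in place of 16, Serpinb2, a dim member, differed by 1.08 in R150C cells.

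The sequence before the start is shown for Plaur and F3, which were called higher in the R150C line. Serpinb2, which was below the filter, is shown too, and so is 1 window of Tfpi2, which did not read higher. The windows shown all hold a match to the pattern marked in them, and windows without a match are not shown. The stretches are the 250 bases upstream of a RefSeq start (build GRCm38.p6), 5′ to 3′ on the strand of the gene. Matches to TGANTCA, where N is any base, are in capitals. This pattern is wider than TGACTCA and TGAGTCA, the core letters bound by AP-1 (dimers of Fos and Jun proteins).
F3, chr3:121723287-121723536, plus strand: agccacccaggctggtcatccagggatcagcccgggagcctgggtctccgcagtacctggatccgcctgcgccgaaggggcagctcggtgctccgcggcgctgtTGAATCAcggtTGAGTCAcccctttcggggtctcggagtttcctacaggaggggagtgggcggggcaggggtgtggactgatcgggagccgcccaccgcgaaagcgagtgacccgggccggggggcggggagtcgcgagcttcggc
Plaur, chr7:24462233-24462482, plus strand: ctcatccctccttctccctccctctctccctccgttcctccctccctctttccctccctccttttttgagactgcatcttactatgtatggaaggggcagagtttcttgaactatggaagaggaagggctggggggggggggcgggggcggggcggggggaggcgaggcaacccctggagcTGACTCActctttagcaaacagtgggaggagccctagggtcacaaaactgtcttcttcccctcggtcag
Serpinb2, chr1:107511173-107511422, plus strand: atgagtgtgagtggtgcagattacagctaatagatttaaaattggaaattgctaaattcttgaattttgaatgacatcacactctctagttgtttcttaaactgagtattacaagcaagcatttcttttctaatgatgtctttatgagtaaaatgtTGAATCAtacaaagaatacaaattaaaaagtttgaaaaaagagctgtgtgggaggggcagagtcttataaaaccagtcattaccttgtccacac
Tfpi2, chr6:3968376-3968625, minus strand: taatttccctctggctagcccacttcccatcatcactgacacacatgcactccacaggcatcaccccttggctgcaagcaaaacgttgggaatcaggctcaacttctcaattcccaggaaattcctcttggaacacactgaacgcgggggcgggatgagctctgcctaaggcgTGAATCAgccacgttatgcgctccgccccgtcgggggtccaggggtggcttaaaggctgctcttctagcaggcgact
The F3 stretch held 2 matches, with first bases at -146 and -135 counted from the base before the start as -1. Plaur held 1 match at -69, Serpinb2 1 at -94 and the Tfpi2 stretch 1 at -77. The Plaur match reads TGACTCA and the F3 match at -135 reads TGAGTCA. The other F3 match and those of Serpinb2 and Tfpi2 read TGAATCA. Over all 32851 listed starts 6.75% had a match in the same window on either strand, and the 2 windows of Tfpi and the other 2 windows of Tfpi2 had none, nor had the window of Serpine2. The window of a second listed Serpinb2 start, which overlaps the first, holds the same match at -181. The cAMP response element TGACGTCA, a CArG box (the site of SRF) and an NF-kB site matched in none of these windows, against 1.55%, 1.47% and 7.25% of all starts. GGGCGG, the core letters of Sp1 sites, matched 3 times each in F3 and Plaur, 2 times in the Tfpi2 window shown, 1 time in each Tfpi window and 6 times in that of Serpine2 (32.7% of all starts have at least 1). TATAAA matched at -29 in Serpinb2 and, on the other strand, at -127 in 1 Tfpi window (12.4% of all starts). A match describes letters and not a bound site, and neither Plau nor Plat had an entry in the promoter table.

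Plaur, the receptor, showed the largest difference among the 4 kept members. Its probe set (1452521_a_at, designed on X62701) read 180.8 without and 169.0 with PTHrP in the WT line, and 958.5 without and 747.4 with PTHrP in the R150C line. Both R150C arrays lay far above both WT arrays, and the lines did not overlap. The difference between the lines was 2.28 in control medium and 2.02 under PTHrP, against a spread of 0.19 for such differences at this level. limma's additive fit gave 2.15 (SE 0.15, 95% interval 1.81 to 2.49), with an adjusted p of 1.01e-05 and a largest value over the 4 scalings of 9.97e-05; it ranked 18 from the top of the 6197 kept genes. Without the filter on dim genes the adjusted p was 0.0369.

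F3, the cell-surface starter of clotting, was next. Its probe set (1417408_at) gave 267.5 without and 211.5 with PTHrP in WT cells, against 630.4 and 541.0 in R150C cells. The R150C arrays were again both above the WT arrays, with log2 differences of 1.16 (control) and 1.27 (PTHrP) and a spread of 0.19. limma gave 1.21 (SE 0.15, 95% interval 0.89 to 1.54), an adjusted p of 0.000439 and 0.00142 at most over the 4 scalings, at rank 78. The call was lost without the filter on dim genes, where the adjusted p by limma was 0.0811.

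**Figure D1:**
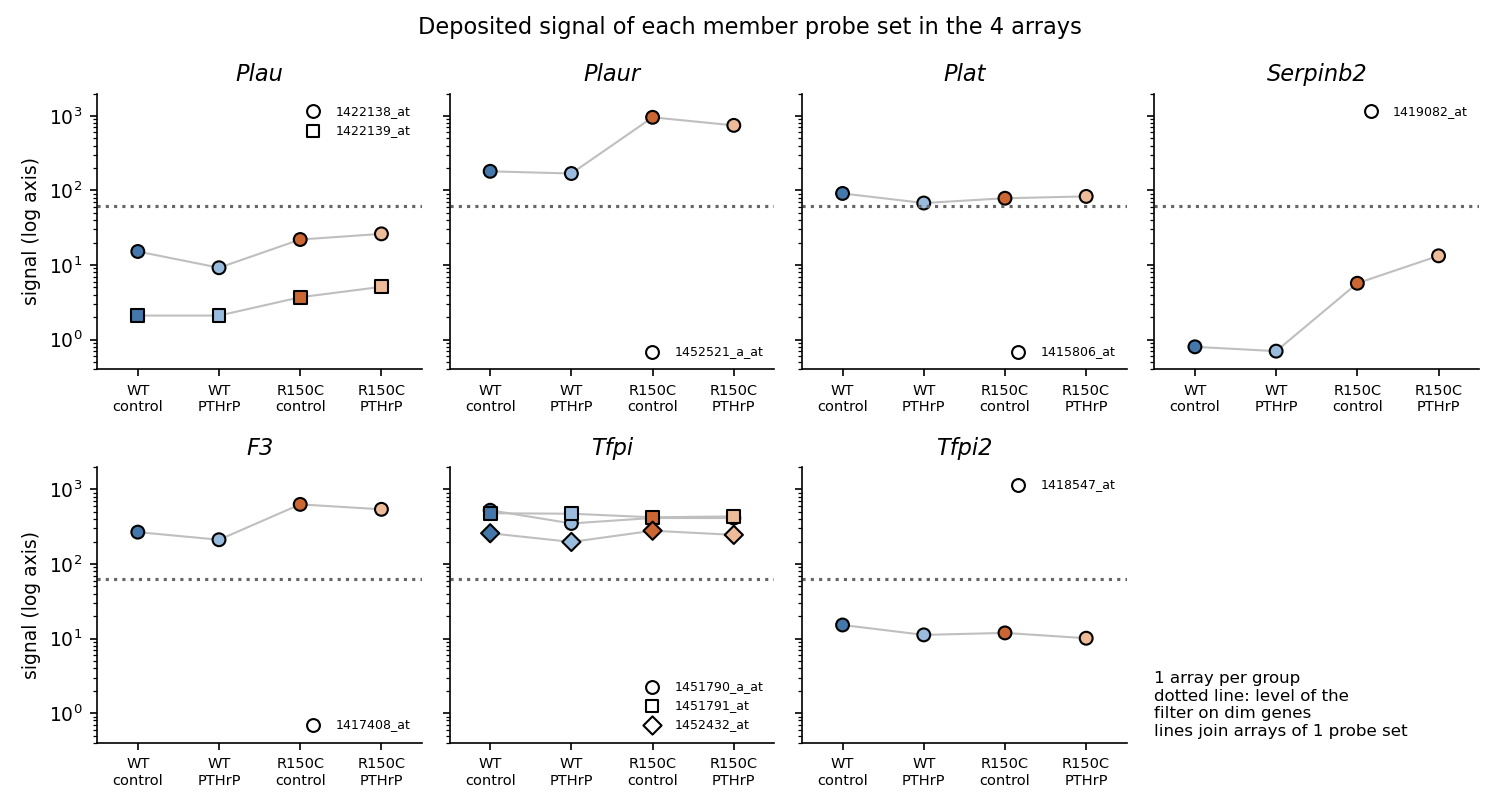
Deposited signal (log axis) of the 10 probe sets of 7 member genes in each of the 4 arrays, 1 array per group; lines join the arrays of 1 probe set and the dotted line marks a signal of 62.6, the filter on dim genes. Plaur and F3 stand higher in both R150C arrays, Plat and the 3 Tfpi probe sets show no common shift between the lines, and Plau, Serpinb2 and Tfpi2 lie below the dotted line throughout.

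Of the activators, Plat was not called and Plau was below the filter. Plat, the tissue-type activator, read 91.3, 67.9, 78.7 and 83.3 (WT control, WT PTHrP, R150C control, R150C PTHrP). The 2 lines overlapped, since both R150C values fell between the 2 WT values. The line difference was -0.21 in control medium and 0.22 under PTHrP, and limma's value over both media was 0.01 (SE 0.16, adjusted p 0.987), with a 95% interval from -0.35 to 0.36. Plau, urokinase itself, has 2 probe sets designed on 1 transcript. The brighter (1422138_at) read 15.2, 9.2, 22.0 and 26.2 in the same order, and the dimmer (1422139_at) 2.1, 2.1, 3.7 and 5.1. Every Plau signal was below the filter. The differences between the lines for the brighter one were 0.25 in control medium and 0.72 under PTHrP, with a spread of 0.46 at this level, and for the dimmer one 0.09 and 0.20, with a spread of 0.18. With a pseudocount of 1 in place of 16 the difference of the brighter probe set over both media moved from 0.49 to 0.93.

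Serpinb2, the serpin known as plasminogen activator inhibitor of the second type, was close to the floor of the WT arrays. Its signals were 0.8 (control) and 0.7 (PTHrP) in WT cells, against 5.7 and 13.3 in R150C cells. All 4 signals are below the filter, and no detection calls were used here, so that no fold is given. On the log2(signal + 16) scale the lines differed by 0.34 in control medium and 0.79 under PTHrP, with a spread of 0.24. These values depend on the pseudocount: over both media the difference was 0.56 with 16, 2.46 with 1 and 0.16 with 64.

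Tfpi, the inhibitor of the tissue factor pathway, has 3 probe sets, and none differed between the lines beyond the spread in 1 direction in both media. The one that stands for the gene (1451791_at, the brightest over the 4 arrays) gave 479.4 and 472.4 in WT cells against 422.8 and 435.2 in R150C cells. Its R150C values were both slightly below the WT values, by 0.21 and 0.13 (log2 differences -0.21 and -0.13, spread 0.19). limma gave -0.17 (SE 0.15, adjusted p 0.503) with a 95% interval from -0.50 to 0.15, so that a change of the size of F3 lies outside that interval. A second probe set designed on the same sequence (1451790_a_at) read 526.0, 349.9, 414.2 and 413.0, with the WT control array highest and the WT PTHrP array lowest, and line differences of -0.37 and 0.21. The third (1452432_at) read 258.5, 197.6, 279.3 and 245.8, with line differences of 0.07 and 0.27. The mean of the 3 probe sets differed by 0.01 between the lines. Tfpi2, the plasmin-inhibiting relative, gave 15.2 and 11.2 in WT cells against 11.9 and 10.1 in R150C cells; the lines overlapped, and the differences of -0.19 and -0.08 lay within a spread of 0.42.

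**Figure D2:**
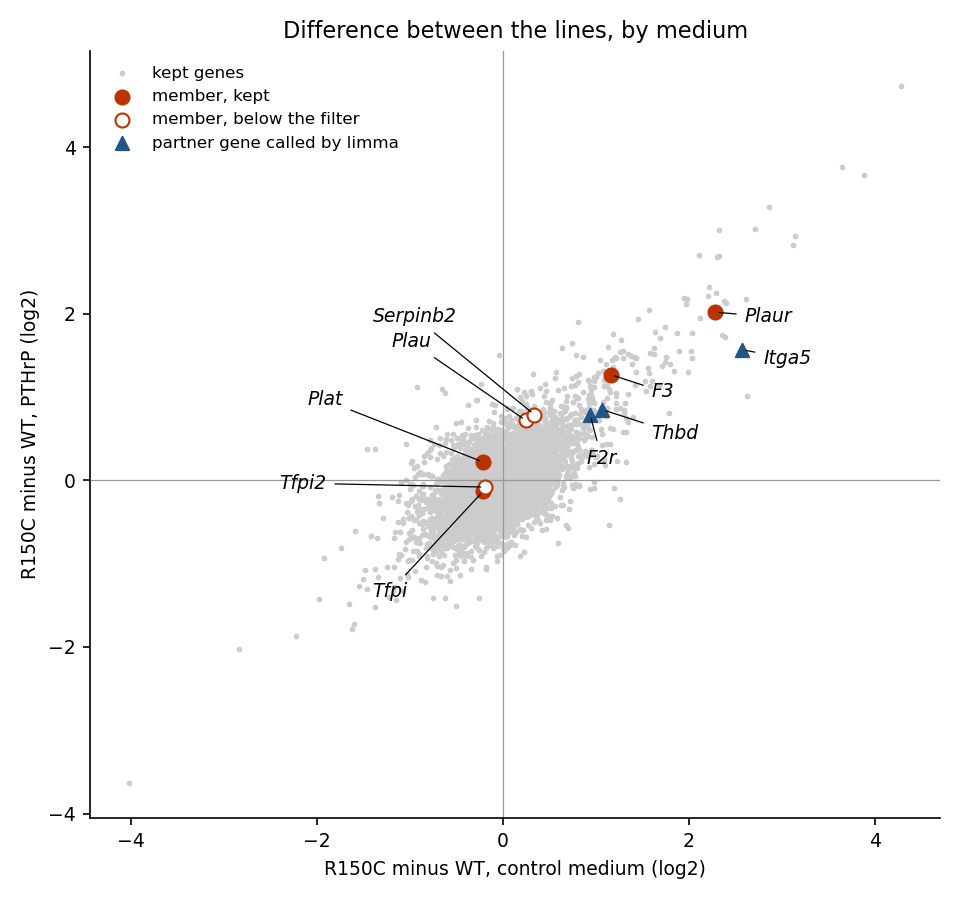
Difference between the lines (R150C minus WT, log2) in control medium (x axis) and under PTHrP (y axis) for the 6197 kept genes (grey), the kept members (filled circles), the members below the filter (open circles) and partner genes called by limma (triangles). Plaur (2.28, 2.02) and F3 (1.16, 1.27) lie along the upper right arm of the cloud, and Plat, Tfpi and Tfpi2 near its centre.

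The PTHrP comparison asked whether 1 h of ligand moves these genes through either receptor. limma called 0 of 6197 kept genes over both lines (0% in either direction), with 345 at an unadjusted p under 0.05 and a smallest adjusted p of 0.564; 25 genes were called when arrays were centred on all probe sets, 1 without centring and 0 after quantile normalization, none of them a member. At 2-fold, 0.387% of kept genes differed in WT cells, 0.145% did in R150C cells, and 0 of the 4 kept members did. Centring on all probe sets adds 0.19 to every PTHrP difference in the WT line and 0.06 to every one in the R150C line. A sign of RNA quality, the ratio of 3′ over 5′ control signal for Gapdh, was 0.845 and 0.991 in the control arrays (WT, R150C) and 1.17 and 1.21 in the PTHrP arrays; its part in these differences was not tested.

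F3 read lower after PTHrP in both lines, from 267.5 to 211.5 in the WT line and from 630.4 to 541.0 in the R150C line. The differences were -0.34 and -0.22, from -0.34 to -0.15 and from -0.24 to -0.16 over the 4 scalings, and limma's common value was -0.28 (SE 0.15, adjusted p 0.915). Plaur differed by -0.11 in the WT line, where centring on all probe sets turned it to 0.08, and by -0.36 in the R150C line. Its common value was -0.23 (SE 0.15, adjusted p 0.915 by limma, 95% interval -0.57 to 0.10). Plat differed by -0.37 in WT cells and by 0.06 in R150C cells (spread 0.26), with a common value of -0.16 (SE 0.16, adjusted p 0.947 by limma). Its WT difference was -0.19 when centred on all probe sets and -0.22 after quantile normalization, both within the spread.

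The Tfpi probe sets did not give 1 answer for PTHrP in the WT line. The differences there were -0.59 (1451790_a_at), -0.38 (1452432_at) and -0.04 (1451791_at), against spreads of 0.19, 0.22 and 0.19. Centring on all probe sets adds 0.19 to each of the 3. That leaves 1451790_a_at beyond its spread, brings 1452432_at within its own and turns 1451791_at to 0.15. In the R150C line the same 3 read -0.01, -0.18 and 0.03. The probe set with the largest difference has a departure from additivity of 0.57, which was not tested since each group has 1 array. Among the dim members, Serpinb2 differed by 0.42 in the R150C line (5.7 to 13.3) and by -0.03 in the WT line, where centring on all probe sets gave 0.16. Plau (brighter probe set) differed by -0.33 in WT cells and by 0.14 in R150C cells, and Tfpi2 by -0.22 and -0.10, the last of which was 0.01 after quantile normalization.

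**Figure D3:**
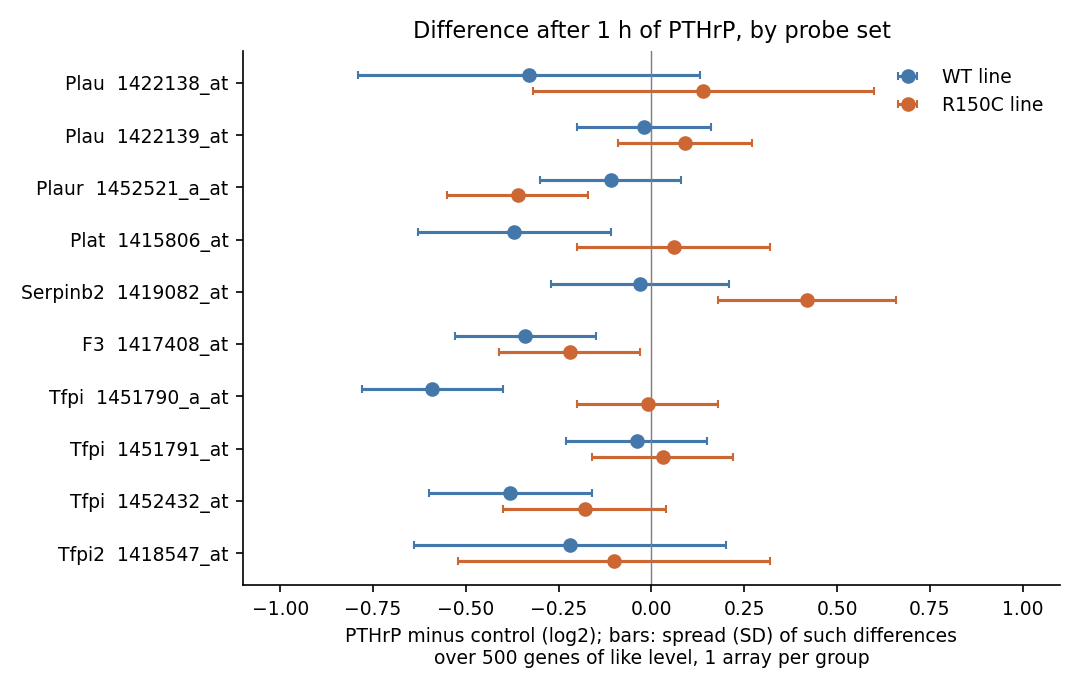
Difference after 1 h of PTHrP (PTHrP minus control, log2) for the 10 member probe sets in the WT line and the R150C line; bars show the spread (SD) of such differences over the 500 genes nearest in level, with 1 array per group. Of the 3 Tfpi probe sets, 1451790_a_at stands at -0.59 in the WT line and 1451791_at at -0.04.

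Partners of the members were followed in 3 lists that did not contain the members themselves. Of 28 genes for plasminogen, its receptors and the receptors and partners of urokinase and Plaur, 25 had a probe set and 11 were kept; 1 was called higher in the R150C line, 0 lower and 10 not, against 5.08% higher and 2.89% lower of all kept genes, a share near that background. Over these 11 the median line difference was 0.02, against -0.06 over all kept genes. The one called was Itga5, the alpha 5 integrin chain that pairs with the beta 1 chain (Itgb1) to bind fibronectin, an integrin known to associate with the urokinase receptor. Itga5 gave 204.8 and 317.2 in WT cells and 1323.3 and 984.1 in R150C cells, which is 2.07 over both media (SE 0.21, adjusted p by limma at most 0.00109 over the 4 scalings). The lines did not overlap, and with the mean of its 2 probe sets the value was 1.64. Itgb1 itself read 1539.9 and 1212.9 against 1475.8 and 1381.2, a difference of 0.04 (adjusted p 0.91 by limma).

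Other surface partners were not called. Lrp1, the endocytic receptor that clears activator-serpin complexes, read 1083.9, 1156.4, 1318.6 and 1289.4 (WT control, WT PTHrP, R150C control, R150C PTHrP), a difference of 0.19 (adjusted p 0.451 by limma). The annexin Anxa2 and its light chain S100a10, which together dock plasminogen, differed by -0.30 and -0.04. The plasminogen receptor gene Plgrkt differed by -0.19, and Mrc2, a collagen receptor that forms a complex with Plaur, by 0.02. Itgav, the vitronectin receptor chain, differed by 0.34 (adjusted p 0.215 by limma), and by 0.02 with the mean of its 3 probe sets. Plasminogen itself, made mainly by the liver, was below the filter, with signals of 18.8, 4.2, 3.5 and 5.3, as was vitronectin (Vtn), a ligand of Plaur, at 18.9 or less.

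Of 23 genes of coagulation and thrombin signalling 22 had a probe set and 5 were kept; 2 were called higher in the R150C line, 0 lower and 3 not, beside the same 5.08% and 2.89% of all kept genes, with a median of 0.06. F2r, the thrombin receptor PAR1, gave 629.1 and 700.2 in WT cells and 1248.0 and 1239.5 in R150C cells, which is 0.86 higher on the log2 scale (SE 0.15, adjusted p by limma at most 0.00716 over the 4 scalings). Thbd encodes thrombomodulin, which turns thrombin towards activating the anticoagulant protein C. It read 190.6 and 209.0 against 426.5 and 396.8, a difference of 0.96 (SE 0.15, at most 0.00587 by limma). In both genes the lines did not overlap. Pros1 (protein S), Gas6 and the annexin Anxa5 differed by -0.01, -0.28 and 0.06. F7, the plasma partner of tissue factor, read between 15.1 and 31.0, and prothrombin (F2) and F10 also stayed below the filter. Both calls in this list and that of Itga5 were lost by limma without the filter on dim genes, where 33 genes in all were called.

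Of 29 other genes of the serpin family 7 were kept, and 0 were called under each of the 4 scalings. Their median line difference was -0.38, against -0.06 over all kept genes. Serpinb1a, an inhibitor of neutrophil proteases, had the lowest value of the 7, at -0.80 (SE 0.18), with signals of 76.8 and 115.9 in WT cells and 52.9 and 44.9 in R150C cells. Its adjusted p by limma was 0.0181 under the main centring and 0.0566 at most over the scalings. Serpinb9, an inhibitor of granzyme B, differed by -0.43, Serpinb9b by -0.42 and Serpinb8 by -0.38. Serpinf2, the main plasma inhibitor of plasmin, was below the filter, at 63.3 in the WT PTHrP array and at 53.4 or less in the others.

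**Figure D4:**
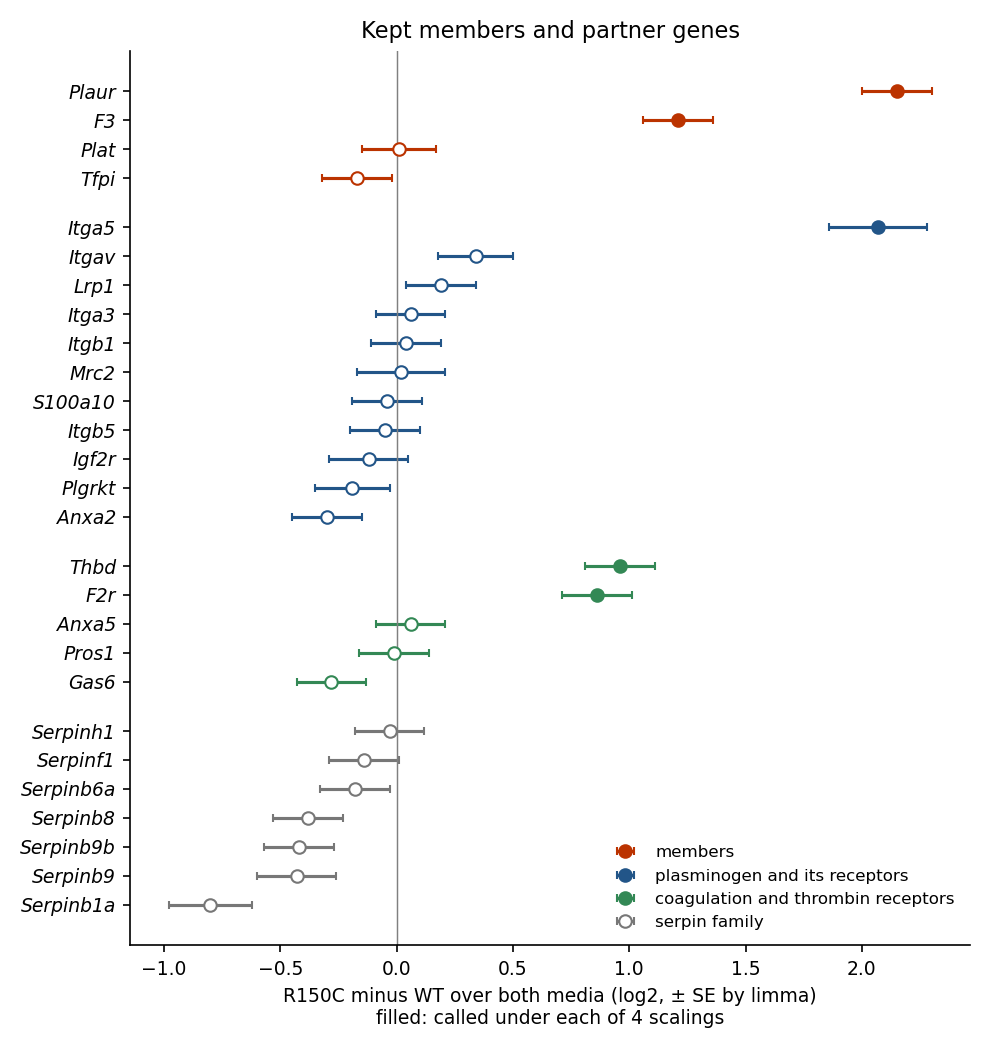
Line difference over both media (R150C minus WT, log2, ± SE by limma) for the 4 kept members and the kept genes of 3 partner lists; filled points were called under each of 4 scalings. Plaur (2.15), Itga5 (2.07), F3 (1.21), Thbd (0.96) and F2r (0.86) are the filled points, all on the R150C side.

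The kept genes whose 4 values ran closest to those of Plaur, by Euclidean distance between centred log2 profiles over the 4 arrays, were Clcf1 (distance 0.17), a cytokine of the IL-6 family, Fosl1 (0.17), an AP-1 protein, and Phlda1 (0.20). Clcf1 gave 129.1 and 105.4 in WT cells and 709.4 and 568.4 in R150C cells, and Fosl1 228.4 and 233.4 against 1283.7 and 1107.3. For Tfpi, the member with the lowest line difference, the closest were Mettl5, Ptn and Jkamp, each at a distance of 0.02 and each with a line difference between -0.18 and -0.15. Profiles over 4 arrays describe these arrays alone.

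As a check on the cells, 9 of 11 measured fibroblast markers were kept, among them Vim (7884.8 to 10659.2), Col1a2 and Fn1, while Dcn and Lum read at most 31.0 and 38.9; 0 of the 9 were called between the lines under each of the 4 scalings. Their median line difference was -0.28, against -0.06 over all kept genes, and Pdgfra, a receptor for platelet-derived growth factor, was called lower by limma under the main centring, at -0.55 (SE 0.15, adjusted p 0.0427 and 0.0732 at most over the scalings). Of 24 markers of macrophages, endothelium and epithelium 3 were kept (Csf1r, Cd14 and Krt8), and 0 were called. The summed signal of the 8 macrophage markers was 361.4 and 281.4 in WT cells against 334.2 and 294.6 in R150C cells, that of the 8 endothelial markers 166.4 and 140.4 against 213.7 and 180.5, and that of the 8 epithelial markers 202.9 and 178.6 against 246.9 and 192.9. Endothelial cells are known to make Plaur and Thbd. Among the endothelial markers Pecam1, Cdh5, Tie1 and Vwf read at most 21.1 in any array. Kdr read 35.9 and 42.9 in WT cells against 76.1 and 45.2 in R150C cells. Egfl7 read 37.4 and 27.7 against 49.4 and 52.0, and Emcn 14.2 and 16.5 against 19.3 and 23.5. None of the 8 endothelial markers was kept. The log2 differences between the lines in control medium and under PTHrP were 0.80 and 0.03 for Kdr. For Egfl7 they were 0.26 and 0.62, for Emcn 0.19 and 0.26, and for Cdh5 0.24 and 0.13. Tek read 43.8 and 31.4 against 33.6 and 35.7, with differences of -0.30 and 0.10. Pecam1 gave -0.36 and -0.08, Tie1 0.0 and -0.05, and Vwf 0.01 and -0.03. The part of the endothelial markers in the differences of Plaur, F3 and Thbd was not tested. In RNA of whole cultures, more cells with a transcript and more of it per cell cannot be told apart. The probe set of the receptor gene Pth1r read 3.2 to 3.9 in the 4 arrays and need not detect the introduced cDNA, so the arrays do not check the labels on the receptor.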

How the data were processed

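RNA of 4 cultures was labelled and hybridised to 1 array each. The deposited values are linear intensities. Per the submitters' processing notes, the authors used Affymetrix Expression Console; its version and algorithm are not given in the sources here, and no detection calls were used. From these, log2(signal + 16) was computed. Of 22690 probe sets, 64 were controls and were left out, 20380 carried 1 gene symbol, 691 more than 1, and 1555 none that the annotation lists; 20351 of those with 1 symbol matched the mouse gene table (GRCm38.p6, names only) by Entrez identifier. The brightest probe set stood for each gene, genes at or above the median level were kept, and each array was centred on their median. Centring on all probe sets, an alternative, left kept genes a median PTHrP difference of 0.22 in the WT line and gave limma an infinite prior; the chosen centring left medians from -0.07 to 0.03. limma 3.58.1 (R 4.3.3) fitted receptor line and treatment without interaction, with 1 residual degree of freedom, and the step was tested on simulated data. The 4 single contrasts share arrays. Alternatives were 3 other scalings, pseudocounts of 1 and 64, no filter, a filter at the 75th percentile and the mean of all probe sets. Named were all members, list genes called under each of 4 scalings, partners of members by role, and the 3 closest profiles to the members with the highest and lowest line difference; other genes were named after their values were seen. The members and lists were chosen with earlier results of these data known. Depth has no counterpart here: the number of arrays limits the precision.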

Additional observations from a re-analysis of the deposited data

How the results depend on the processing

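Plaur and F3 kept their direction under the 8 alternative settings, and Plaur its call; F3 (1.21, adjusted p by limma 0.0811) lost its call without the filter on dim genes, which left 1 member called. Without that filter limma called 30 genes higher and 3 lower between the lines (33 in all), against 342, 259 and 601, and 0 in each of the 3 partner lists; the filter at the 75th percentile gave 158 lower, with fewer genes tested. The single serpin called under the main centring fell to 0 after quantile normalization, without the filter, under the stricter filter, and when probe sets of a gene were averaged. PTHrP calls over both lines were 22 higher and 3 lower (25) when centred on all probe sets and 1 higher without centring, against 0. The cause of these shifts was not tested. Of 304 other member values under alternatives 287 counted as unchanged and 17 as moved, most of the 17 being Serpinb2 under another pseudocount. A value counted as moved if it shifted by at least the spread, taken smaller for means over both media or lines. The PTHrP effect of a tested member was judged only by whether its call changed. No paired analysis was possible because each group has 1 array and the labels give no replicate numbers; for the same reason no array could be left out.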

Other observations

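Hepatocyte growth factor (Hgf) is a ligand that serine proteases turn into its active form, and Met is the receptor tyrosine kinase it binds. Both were below the filter and have no test in the main analysis. Hgf read 81.4 in the WT control array and 39.2, 41.0 and 29.7 in the WT PTHrP, R150C control and R150C PTHrP arrays. Met read 75.1, 32.2, 37.6 and 28.7 in the same order. In both genes the WT control array alone exceeded 62.6. Other dim genes of the lists, such as Plg and Pecam1, also read highest in that array, while Serpinf2 read lowest there. How many dim genes do so was not counted, and no spread is given here at the level of Hgf and Met.

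Serpind1, heparin cofactor II, an inhibitor of thrombin, gave 30.5 and 5.8 in WT cells, control and PTHrP, against 32.1 and 6.1 in R150C cells, a difference of -1.11 and -1.13 on the log2(signal + 16) scale, at signals below the filter and with no test. These genes were picked after their values were seen.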
